A study of Xenopus laevis with 5 samples.

Results

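The genes described here are 9 transcriptional regulators of the embryonic epidermis, namely tfap2a, tfap2b and tfap2c of the AP-2 family, grhl1, grhl2 and grhl3 of the Grainyhead-like family, tp63 (p63), and the homeobox genes dlx3 and dlx5. They were chosen by symbol in the deposited annotation. All were present as an L and an S copy, the homeologs left by the genome duplication of Xenopus laevis, which gave 18 gene models of 45099. RNA was sequenced from whole Xenopus laevis embryos that had reached stage 10.5 (early gastrula). The control group (3 libraries) received 18 ng of a control morpholino, and the MOV10 group (2 libraries, replicates 2 and 3) received 18 ng of a translation-blocking morpholino against MOV10, an RNA helicase linked to RNA silencing. A morpholino is a stable antisense oligonucleotide. Per the labels each library is a biological replicate and the embryos were collected separately, and the eggs came from 2 mating pairs. How these pairs fell into the groups is not given in the sources used here.

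In the gastrula, BMP signalling on the ventral side of the ectoderm turns cells away from neural fate and toward epidermis. AP-2 proteins and Dlx3 and Dlx5 act early in that step, and AP-2 and Grainyhead-like proteins bind the control regions of epidermal genes such as keratins. p63 is best known from mouse skin, where it maintains the stratified epithelium. AP-2 and Dlx genes also take part in forming the neural plate border and neural crest.

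The reads assigned to genes numbered 11347400 to 13515787 per library. Levels are given as CPM, read counts relative to the library's gene reads after TMM scaling, a method that matches libraries on the bulk of their genes. A floor of 3 reads in a library stood at 0.201 to 0.283 CPM. Differences are log2 fold changes of MOV10 over control with the standard error (SE). They come from edgeR's quasi-likelihood test on 20049 genes, with Benjamini-Hochberg adjustment over all of them and a threshold of 0.05. RNA of the target, mov10.L, was at 2.69 to 7.03 CPM in the controls and 26 and 32.8 CPM in the MOV10 group, and since the morpholino blocks translation this checks neither labels nor knockdown. Marker lists of other cell types were read beside these results, and 24.4% of all tested genes were called higher. The summed level of 25 differentiated muscle copies was 186 to 528 CPM in the controls and 15000 to 17200 CPM in the MOV10 group. Of these copies 18 of 20 tested were called higher, 6 were at 0 in every control and 2 at 0 in all libraries. Some of the 18, such as tnni2.S, mybpc3.S, tnnc1.S and myoz1.S, had at most 3 reads in any control. Only the MOV10 group carried such copies past the filter on low counts, so they could not have been called lower. Copies marking multiciliated cells, ionocytes and secretory cells of the epidermis summed to 104 to 396 CPM in the controls and 1130 to 1450 CPM in the MOV10 group. Of these, 7 of 14 tested were called higher. Within that sum itln1.L, a secretory cell gene that is also on the epithelial list, was alone at 45, 168 and 244 CPM in the controls and 1110 and 856 CPM in the MOV10 group. The regulators of multiciliated cells foxj1 and ccno, named after their values were seen, did not pass in any copy, with log2 fold changes from -0.43 to 0.47. Neuronal copies summed to 32.4 to 40 CPM in the controls and 66 to 87.3 CPM in the MOV10 group, with 3 of 8 tested called higher, or 1 without MOV10 replicate 2. The only tested copy of the blood and endothelial list, kdr.L, was called higher. It had 5, 1 and 0 reads in the controls and 24 and 129 in the MOV10 libraries. Only the MOV10 group thus carried it past the filter on low counts. Among untested copies gata1.L, named after its values were seen, had 16, 9 and 0 reads in the controls and 1 and 0 in the MOV10 libraries. That list summed to 1.16 to 3.35 CPM in the controls and 11.6 to 14.6 CPM in the MOV10 group. These levels moved in the same libraries as every result below, and their part in those results was not tested. A difference in true stage and the morpholino cannot be told apart here. In whole embryos, fewer epidermal cells and less RNA per cell cannot be told apart either.

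The regulators were mostly lower in the MOV10 group. Of the 15 copies that passed the filter on low counts, 8 fell, none rose and 7 did not pass the test. Across all tested genes, 17.7% were called lower and 24.4% higher, 42.1% in either direction. The 8 were both copies of tfap2a, of dlx5 and of grhl3, with tfap2c.S and dlx3.S. At an unadjusted p under 0.05, 11 copies were lower and 1 (grhl2.L) was higher, beside 22.1% and 28.5% of all tested genes, and DESeq2 and limma-voom also called 0 higher. The median log2 fold change of the tested copies was -1.45, beside 0.08 for all tested genes. With total gene reads as the scale the median of all genes was -0.12 and that of the tested copies -1.65. In 11 of the 15 copies both MOV10 libraries lay below all controls, as in 30.4% of tested genes, and in 1 copy (tp63.S) both lay above, as in 35.5%. The copy tp63.S needed the MOV10 libraries to pass the filter, while dlx3.L, among the 11, passed it through the controls alone. The filter thus favoured the order seen in these copies. The 3 copies that were not tested were tfap2b.L, tfap2b.S and tp63.L. In a separate fit with L and S reads summed for every gene, 5 of the 8 tested regulators fell (tfap2a, tfap2c, grhl3, dlx3 and dlx5) and the other 3 did not pass (grhl1, grhl2 and tp63), where 18.8% of all genes were called lower and 25.2% higher.

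**Figure D1:**
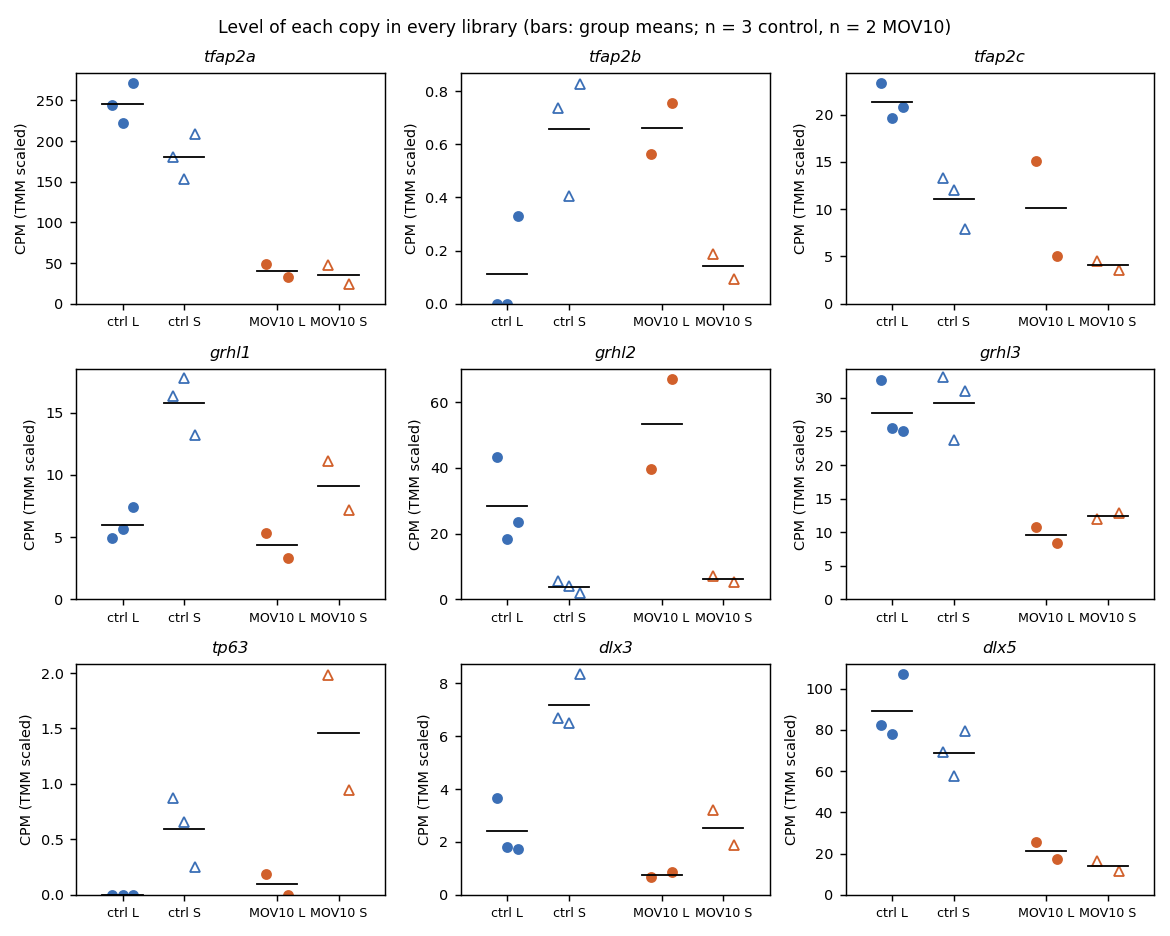
Level of each of the 18 copies in every library, in CPM after TMM scaling, with the L copy as filled circles, the S copy as open triangles, control libraries in blue, MOV10 libraries in orange and group means as bars. The tfap2a, dlx5 and grhl3 copies were lower in both MOV10 libraries than in any control, while grhl2.L ranged from 18.2 to 43.3 CPM in controls and from 39.6 to 66.9 CPM in the MOV10 group.

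tfap2a encodes the AP-2 alpha protein, which in Xenopus activates epidermal keratin genes downstream of BMP. The L copy (Xelaev18031635m.g, chromosome 6L, 88807331 to 88821402, minus strand, Xenla9.1 build) stood at 244, 222 and 271 CPM in control replicates 1, 2 and 3, and at 48.3 and 33.3 CPM in MOV10 replicates 2 and 3. All controls were above both MOV10 libraries, with a gap far wider than the spread within either group. It fell 6.02-fold, a log2 fold change of -2.59 ± 0.24 (SE; edgeR adjusted p = 0.00016). The S copy (Xelaev18033390m.g, 6S, 62514137 to 62530271) was at 180, 153 and 209 CPM in the controls and at 47.4 and 24 CPM in the MOV10 group, again with no overlap. It fell 5.05-fold, by 2.34 ± 0.32 on the log2 scale (SE; edgeR adjusted p = 0.000905). Both calls held in all 13 alternative analyses.

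The 5 genes whose profile over the 5 libraries was most like that of tfap2a.L were c16orf72.L, klf2.S, gng7.L, lgals12.L and mrpl36.L, of 15684 tested genes with a symbol. Likeness was the mean absolute difference of centred log2(CPM + 0.5) values, which was 0.0326 for c16orf72.L and 0.0699 for mrpl36.L. With 5 libraries in 2 groups this mostly reflects the size of the group difference. Their log2 fold changes lay between -3.26 (gng7.L) and -2.52 (mrpl36.L).

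tfap2c encodes AP-2 gamma, a relative of AP-2 alpha with overlapping roles in ectoderm and neural crest. Its S copy (Xelaev18046210m.g, 9_10S, 12195302 to 12216860) stood at 13.3, 12 and 7.93 CPM in the controls and at 4.52 and 3.59 CPM in the MOV10 group. The groups did not overlap, and the copy fell 2.73-fold (log2 fold change -1.45 ± 0.39, SE; edgeR adjusted p = 0.0176). Leaving out control replicate 1 ended that call (edgeR adjusted p = 0.0574), as did leaving out MOV10 replicate 3 (edgeR adjusted p = 0.0747), and over 13 alternatives the adjusted p ran from 0.00421 to 0.0747. The L copy was at 23.4, 19.7 and 20.8 CPM in the controls, and the MOV10 libraries differed from each other, at 15.1 and 5.1 CPM. Its log2 fold change of -1.08 ± 0.43 (SE; 95% interval -2.07 to -0.09) did not pass the test (edgeR adjusted p = 0.0764). Without MOV10 replicate 2, the higher of the MOV10 libraries, it was -2.07 (edgeR adjusted p = 0.00563), and over 13 alternatives the adjusted p ran from 0.00563 to 0.303. With L and S reads summed, tfap2c fell 2.37-fold (log2 fold change -1.25 ± 0.37, SE; edgeR adjusted p = 0.0262).

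tfap2b, the gene of AP-2 beta, was at the edge of detection and was not tested. Its L copy had 0, 0 and 4 reads in the controls and 6 and 8 in the MOV10 libraries, while its S copy had 11, 5 and 10 reads in the controls and 2 and 1 in the MOV10 libraries. The copies thus lay in opposite order, and their sum of 5 to 14 reads in the controls overlapped the 8 and 9 reads of the MOV10 group. The L copy made up 0, 0 and 28.6% of tfap2b reads in the controls and 75 and 88.9% in the MOV10 group (Wilson 95% interval 40.9 to 92.9% in replicate 2 and 56.5 to 98% in replicate 3). The difference had p = 0.2 in a two-sided exact permutation test over the libraries, the smallest value that 3 against 2 libraries can give here.

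dlx5 and dlx3 encode homeobox proteins of the non-neural ectoderm and its border with the neural plate. dlx5.L (Xelaev18030888m.g, 6L, 31422482 to 31427745) stood at 82.1, 77.8 and 107 CPM in the controls and at 25.5 and 17.2 CPM in the MOV10 group. dlx5.S (Xelaev18032987m.g, 6S, 26415485 to 26421095) stood at 69.4, 57.5 and 79.3 CPM in the controls and at 16.6 and 11.6 CPM in the MOV10 group. Neither copy had overlapping groups, and every control was far above both MOV10 libraries. They fell 4.16-fold (log2 fold change -2.06 ± 0.28, SE; edgeR adjusted p = 0.000793) and 4.87-fold (-2.28 ± 0.28, SE; edgeR adjusted p = 0.000512), and both calls held in all 13 alternatives. The next gene model to dlx5 on either subgenome is dlx6, at a gap of 10.1 kb on 6L and 13.3 kb on 6S, and dlx5 and dlx6 are known to share control regions in vertebrates. Both dlx6 copies were lower as well. dlx6.S fell 4.61-fold from 21.5, 21.6 and 35.9 CPM to 7.62 and 3.78 CPM (edgeR adjusted p = 0.00374), and dlx6.L, named after its values were seen, fell 5.03-fold from 4.73 to 8.34 CPM down to 1.98 and 0.472 CPM (edgeR adjusted p = 0.0212).

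dlx3.S (Xelaev18046036m.g, 9_10S, 4411850 to 4420177) stood at 6.7, 6.52 and 8.34 CPM in the controls and at 3.2 and 1.89 CPM in the MOV10 group, with no overlap. It fell 2.82-fold (log2 fold change -1.49 ± 0.44, SE; edgeR adjusted p = 0.0259). The call ended without control replicate 1 (edgeR adjusted p = 0.0516), control replicate 3 (0.0729) or MOV10 replicate 3 (0.111) and against a 1.5-fold change (0.059), and the adjusted p ran from 0.00954 to 0.111 over 13 alternatives. dlx3.L had 55, 22 and 21 reads in the controls and 7 and 9 in the MOV10 libraries, and its log2 fold change of -1.66 ± 0.70 (SE; 95% interval -3.27 to -0.06) did not pass the test (edgeR adjusted p = 0.0884). With L and S reads summed, dlx3 fell 3.01-fold (edgeR adjusted p = 0.0118). dlx4, the family member paired with dlx3 in vertebrates, had 0 reads of either copy in all 5 libraries. dlx2.S had 5 to 30 reads and did not pass (log2 fold change -0.73 ± 0.80, SE), and dlx2.L had 7 and 5 reads, in the MOV10 libraries alone.

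The Grainyhead-like genes were divided. grhl3, whose mouse counterpart is needed for the skin barrier and neural tube closure, fell in both copies. grhl3.L (Xelaev18012032m.g, 2L, 55247795 to 55263907) stood at 32.7, 25.5 and 25.1 CPM in the controls and at 10.8 and 8.32 CPM in the MOV10 group. grhl3.S (Xelaev18003223m.g), which the annotation places on Scaffold43, stood at 33.1, 23.7 and 31.1 CPM in the controls and at 11.9 and 12.9 CPM in the MOV10 group. The groups did not overlap in either copy. grhl3.L fell 2.9-fold (log2 fold change -1.54 ± 0.29, SE; edgeR adjusted p = 0.0036) and grhl3.S fell 2.37-fold (-1.24 ± 0.27, SE; edgeR adjusted p = 0.00727), and both calls held in all 13 alternatives.

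grhl1, which in Xenopus activates keratin genes of the epidermis, did not pass the test in either copy. grhl1.S was at 16.3, 17.8 and 13.2 CPM in the controls and at 11.1 and 7.18 CPM in the MOV10 group, below all controls, with a log2 fold change of -0.79 ± 0.33 (SE; 95% interval -1.54 to -0.04; edgeR adjusted p = 0.0854). It passed with total gene reads as the scale (-0.98, edgeR adjusted p = 0.0393; range 0.0393 to 0.346 over 13 alternatives). grhl1.L overlapped between groups, at 4.89 to 7.43 CPM and at 5.36 and 3.31 CPM, with a log2 fold change of -0.46 ± 0.43 (SE; 95% interval -1.45 to 0.53). With total gene reads as the scale, both MOV10 libraries of grhl1.L lay below all controls.

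grhl2, an activator of epithelial junction genes in mammals, had estimates of the opposite sign. grhl2.L (Xelaev18032256m.g, 6L, 132435253 to 132484389) was at 43.3, 18.2 and 23.5 CPM in the controls and at 39.6 and 66.9 CPM in the MOV10 group. Control replicate 1 lay above the lower MOV10 library, so the groups overlapped. The log2 fold change of 0.91 ± 0.39 (SE; 95% interval 0.02 to 1.8) did not pass the test (edgeR adjusted p = 0.0927). Leaving out control replicate 1 gave 1.36 and a call of higher (edgeR adjusted p = 0.0165), while leaving out MOV10 replicate 3 gave 0.47 (edgeR adjusted p = 0.462). grhl2.S was at 5.62, 3.99 and 1.98 CPM in the controls and at 6.96 and 5.39 CPM in the MOV10 group, with a log2 fold change of 0.67 ± 0.51 (SE; 95% interval -0.49 to 1.82; edgeR adjusted p = 0.32).

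The ratio of grhl3 to grhl2 reads within a library, which does not depend on the scaling, was 1.34, 2.22 and 2.21 in control replicates 1, 2 and 3 and 0.487 and 0.293 in MOV10 replicates 2 and 3. All controls were above both MOV10 libraries, in a pair of genes chosen after its values were seen, and the ratio is not corrected for transcript length. For tfap2a and grhl2 the ratio was 8.65, 16.9 and 18.9 in the controls and 2.05 and 0.792 in the MOV10 group. The ratio of tfap2a to dlx5 reads was 2.79, 2.77 and 2.58 in the controls and 2.28 and 1.99 in the MOV10 group, which again did not overlap. None of these ratios was tested. How often such ratios between other genes lack overlap was not counted, so these cannot be called unusual. Among single tested genes, 30.4% lay lower and 35.5% higher in the MOV10 group without overlap. Of the reads of all 18 copies, AP-2 genes held 60.7 to 63.1% in the controls and 46.4 and 32.9% in the MOV10 group, while Grainyhead-like genes held 12.6 to 17.9% in the controls and 34.3 and 51.1% in the MOV10 group. The summed level of the Grainyhead-like genes overlapped between the groups, at 94.8 to 136 CPM in the controls and 85.7 and 104 CPM in the MOV10 group, while that of the AP-2 genes was 407 to 510 CPM and 116 and 66.8 CPM. The summed level of all 18 copies was 646 to 809 CPM in the controls and 250 and 203 CPM in the MOV10 group.

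**Figure D2:**
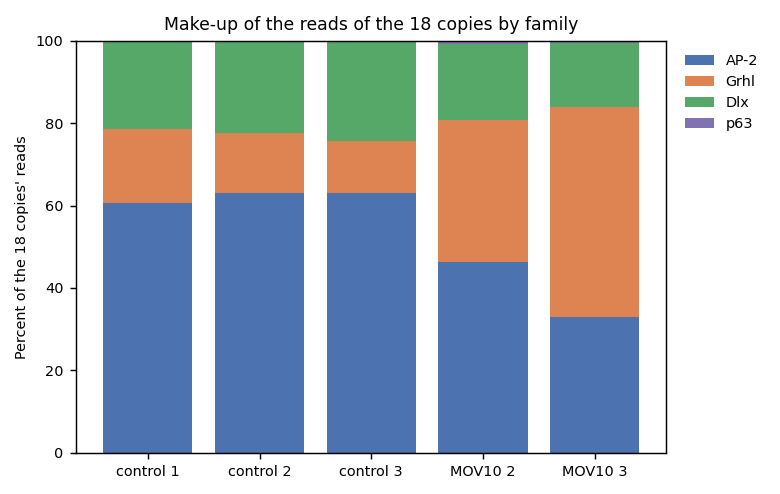
Reads of the 18 copies in each library divided by family, as percent of the reads of all 18 copies. AP-2 genes held 60.7 to 63.1% in the 3 controls and 46.4 and 32.9% in the MOV10 libraries, and the p63 share was 0.0306 to 0.866%.

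p63 RNA was near the floor. tp63.L had 0 reads in every control and 2 and 0 reads in the MOV10 libraries, so it was not tested. tp63.S (Xelaev18029602m.g, 5S, 84502131 to 84546960) had 13, 8 and 3 reads in the controls and 21 and 10 in the MOV10 libraries. Its log2 fold change of 1.28 ± 0.84 (SE; 95% interval -0.64 to 3.2) did not pass the test (edgeR adjusted p = 0.252). The MOV10 libraries lay above all controls in CPM, by 0.945 against 0.87 at the closest, but the groups overlapped with total gene reads as the scale. A further gene model without a symbol lies inside tp63.S on the same strand, and it had 0 reads in all libraries. A relative of p63, p73, is encoded by tp73. Its S copy, tp73.S, rose and had 4, 7 and 0 reads in the controls and 191 and 105 in the MOV10 libraries (log2 fold change 5.59 ± 0.77, SE; edgeR adjusted p = 0.000855). Only the MOV10 group carried tp73.S past the filter on low counts, so it could not have been called lower. tp73.L was not tested, with 0 reads in every control and 20 and 7 in the MOV10 libraries.

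**Figure D3:**
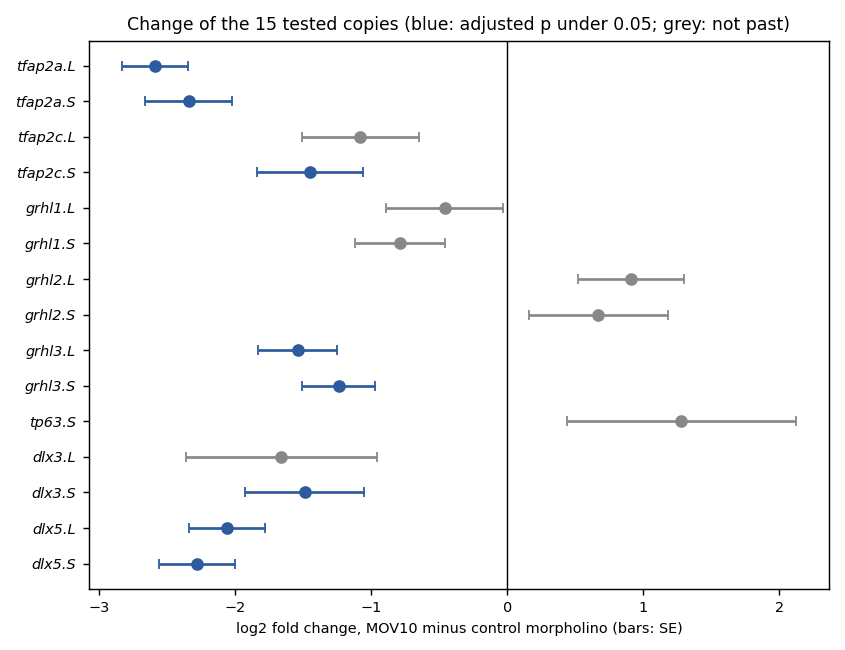
Log2 fold change of MOV10 over control morpholino for the 15 tested copies, with bars for the SE, in blue where the edgeR adjusted p was under 0.05 and in grey where it was not. All 8 blue points lie between -2.59 and -1.24, and the grey points to the right of 0 are both grhl2 copies and tp63.S.

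The balance of L and S copies was compared within libraries as the L share of the L plus S reads, which scaling does not touch. For tfap2a the L share was 57.6, 59.2 and 56.4% in the controls and 50.4 and 58.1% in the MOV10 group. The Wilson 95% interval of MOV10 replicate 2 (47.4 to 53.5%) lay below those of the controls, and that of MOV10 replicate 3 overlapped them. dlx5 had an L share of 54.2, 57.5 and 57.4% in the controls and 60.6 and 59.7% in the MOV10 group, the only gene beside tfap2b whose groups did not overlap (two-sided exact permutation p = 0.2). How many of all L and S pairs had groups without overlap was not counted, so dlx5 cannot be called unusual in this. grhl2 reads were mostly from the L copy, at 82 to 92.5% over the 5 libraries, and grhl1 reads mostly from the S copy, with an L share of 23.1 to 36%. For tfap2a, tfap2c, grhl1, grhl2, grhl3, tp63 and dlx3 the shares overlapped between groups, with exact permutation p from 0.4 to 1. With 2 MOV10 libraries, none of these tests can reach 0.05.

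**Figure D4:**
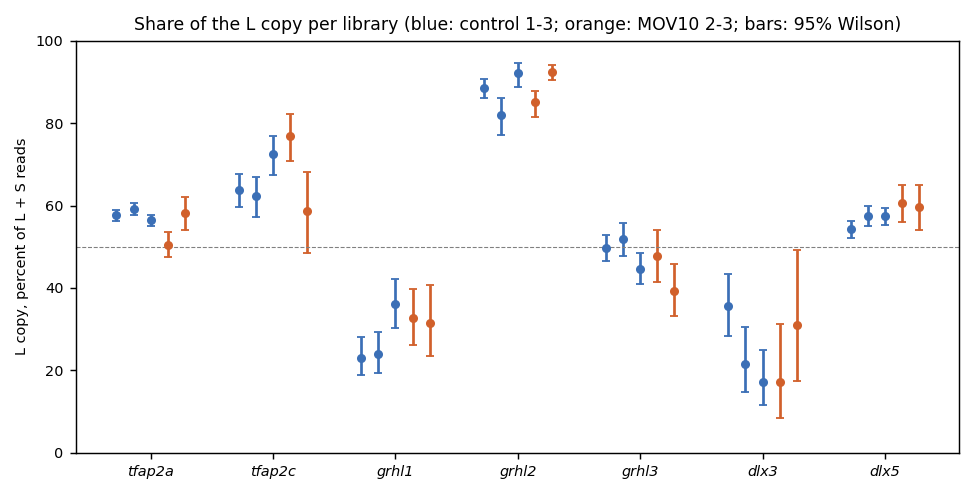
Share of the L copy in the L plus S reads of 7 genes, in percent, per library, with Wilson 95% intervals for counting error only; controls are blue and MOV10 libraries orange. The L share of grhl2 lay between 82 and 92.5% and that of grhl1 between 23.1 and 36%, while tfap2a, grhl3 and dlx5 lay nearer to 50%.

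Relatives and cofactors of these families were counted from a list of 16 symbols, of which 14 were matched by 25 copies. Of the 16 tested copies 5 rose, 4 fell and 7 did not pass, with a median log2 fold change of 0.29, where 24.4% of all tested genes rose and 17.7% fell. Among the 5 that rose was tp73.S, which only the MOV10 group carried past the filter on low counts. Also among them were 2 more distant members of the Grainyhead superfamily, tfcp2l1.L (9.17-fold) and tfcp2.L (4.53-fold). In the MOV10 libraries tfcp2l1.L was at 35.4 and 89 CPM. Its S copy, tfcp2l1.S, named after its values were seen, did not pass the test (log2 fold change 1.2 ± 0.66, SE). The 4 that fell were both dlx6 copies and both copies of cited4 (named after their values were seen), whose family in mammals holds AP-2 coactivators. The other tested copies of that family, cited2.L and cited1.L, also named after their values were seen, did not pass. Their log2 fold changes were 0.09 ± 0.64 and 2.32 ± 1.11 (SE). Without control replicate 1, without MOV10 replicate 3, with a replicate block, or against a 1.5-fold change, 2 fell. The kctd1 and kctd15 genes, known as AP-2 inhibitors, had no copy past the test. Copies of tfap2d and tfap2e had at most 20 reads in any library and were not tested, with tfap2d the next gene model to tfap2b on both subgenomes.

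BMP pathway genes and other factors of the non-neural ectoderm also fell more often than they rose. Of 45 tested copies 16 fell, 5 rose and 24 did not pass, with a median log2 fold change of -0.57, beside 17.7% lower and 24.4% higher among all genes. The forkhead genes foxi4.2.L and foxi4.2.S, regulators of ectoderm and ionocytes, fell 7.14-fold and 6.52-fold, and of the BMP pseudoreceptor gene, bambi.L fell 3.19-fold and bambi.S 4.19-fold. The ligand gene bmp7.2.L fell 71.6-fold, from 222, 200 and 219 CPM to 3.48 and 2.46 CPM. Other ligand copies, named after their values were seen, went either way. bmp4.L fell 2.39-fold, while bmp7.1.S, at 0.87 to 1.49 CPM in the controls, rose 6.89-fold. bmp4.S was at 196 to 223 CPM in the controls and 202 and 357 CPM in the MOV10 group. It did not pass the test (log2 fold change 0.43 ± 0.25, SE), nor did bmp7.1.L, bmp7.2.S or either bmp2 copy. Among genes named after their values were seen, the zinc finger genes gata2 and gata3 lay on opposite sides. gata2.L stood at 57.9 to 91.8 CPM in the controls and at 13.7 and 16.3 CPM in the MOV10 group (edgeR adjusted p = 0.000491), while gata3.L rose from 10.4 to 22.1 CPM up to 27 and 45.9 CPM (edgeR adjusted p = 0.0271). gata3.S rose as well (edgeR adjusted p = 0.0372), and both gata3 copies had the largest adjusted p of the 5 copies that rose. The Notch target gene hes1.S rose by 3.04 ± 0.23 on the log2 scale (SE; edgeR adjusted p = 6.02e-05). The number that rose was 3, not 5, without control replicate 1, without control replicate 2, without MOV10 replicate 3, with total gene reads as the scale and against a 1.5-fold change.

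The list of epithelial and epidermal target genes held 46 symbols, of which 36 were matched. Its keratin symbols krt5, krt70 and krt12.1 to krt12.5 matched no gene model, and krt14.L had 0 reads in every library. Of the keratins, only krt8, krt18 and krt19 were thus tested. The list had 52 tested copies, of which 14 rose, 12 fell and 26 were not past the threshold, at a median log2 fold change of -0.02. These counts were near the shares over all tested genes, 24.4% higher and 17.7% lower. Among those that rose, elf3.L and elf3.S, named after their values were seen, had 0 reads in every control. Only the MOV10 group carried both past the filter on low counts, so neither could have been called lower. The adhesion gene epcam.L fell 4.05-fold, from 905, 647 and 495 CPM to 137 and 199 CPM, while the simple-epithelium keratin genes krt19.S and krt18.S rose, with log2 fold changes of 3.34 ± 0.27 and 1.41 ± 0.21 (SE; edgeR adjusted p = 7.75e-05 and 0.00124). Of further keratin copies, named after their values were seen, krt19.L rose 4.63-fold and krt8.S 1.84-fold. krt18.L (log2 fold change 0.48 ± 0.26, SE) and krt8.L (0.04 ± 0.23, SE) did not pass the test. A desmosome gene, pkp3.S, and a claudin gene of tight junctions, cldn6.S, rose as well, with log2 fold changes of 3.95 ± 0.37 and 4.49 ± 0.49 (SE). Other copies of both kinds, named after their values were seen, mostly did not rise. Of the desmosome copies dsc3.L rose 3.84-fold, while perp.S fell 4.87-fold, dsg2.L 2.96-fold and dsp.S 2.11-fold. Among those that did not pass the test was pkp3.L (log2 fold change 0.14 ± 0.36, SE). The same held for dsp.L (-0.04 ± 0.25, SE), dsg2.S (-0.78 ± 0.50, SE) and dsc3.S (-1.66 ± 0.84, SE). Both copies of the claudin gene cldn7 fell. E-cadherin gene cdh1.S, bound by Grainyhead-like proteins in mammals and named after its values were seen, was at 66.2 to 72.6 CPM in the controls and at 46.3 and 55.2 CPM in the MOV10 group and did not pass the test (log2 fold change -0.44 ± 0.21, SE; edgeR adjusted p = 0.125). Another junction gene named in this way, cldn4.L, fell by 2.46 on the log2 scale (edgeR adjusted p = 0.00891). Its S copy, cldn4.S, did not pass the test (log2 fold change -0.94 ± 0.52, SE).

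Of genes of the neural plate border, neural crest and placodes 30 copies were tested, and 4 of them rose, 3 fell and 23 were not past the threshold, with a median log2 fold change of 0.28. Over all tested genes 24.4% rose and 17.7% fell, 42.1% together, so these 7 calls in 30 copies were a smaller share. Without control replicate 1, 7 rose. The border factor gene zic1 fell in both copies, zic1.S 11-fold and zic1.L 3.68-fold, and hes4.S fell 2.43-fold. The more abundant hes4.L, named after its values were seen, did not pass the test (log2 fold change 0.34 ± 0.23, SE). It was at 250 to 261 CPM in the controls and 400 and 246 CPM in the MOV10 group. The crest genes sox9.L and snai2.L rose, from 0.33 to 0.57 CPM up to 3.67 and 3.59 CPM and from 0.496 to 0.896 CPM up to 5.27 and 2.65 CPM. In the controls these copies had few reads, 6, 7 and 4 for sox9.L and 8, 11 and 6 for snai2.L. Both copies needed the MOV10 libraries to pass the filter on low counts, so the filter favoured a rise. Their S copies, named after their values were seen, did not pass the test. The log2 fold change was 0.28 ± 0.60 (SE) for sox9.S and 0.51 ± 0.91 (SE) for snai2.S.

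**Figure D5:**
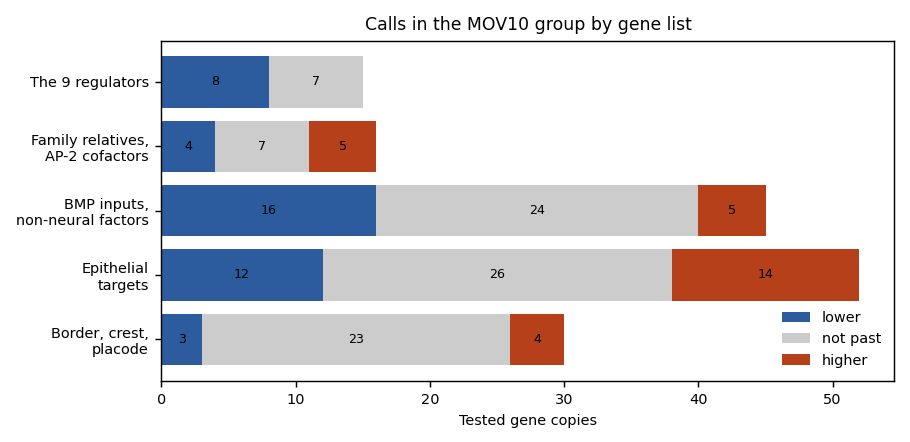
Number of tested copies called lower, called higher or not past the test in the MOV10 group, for the 9 regulators and for 4 lists of related genes. The regulators had 8 lower and 0 higher of 15, and the epithelial target genes had 12 lower and 14 higher of 52.

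The authors' deposited table of the same comparison lists 14 of the 18 copies. Per the authors' deposited table, 7 of them had a false discovery rate under 0.05, namely both copies of tfap2a, dlx5 and grhl3, with tfap2c.S, while dlx3.S was at 0.0549 there. Except for both copies of tfap2a and dlx5, those rates lay nearer to the glmTreat test against a 1.5-fold change than to the main test. The glmTreat test also called 7 lower. The rates of the tfap2a and dlx5 copies lay nearer to the main test. For dlx5.L the rate was 0.000855 there, beside adjusted p = 0.000793 in the main edgeR test and 0.00175 with glmTreat. For grhl1.S the rate was 0.248 there, beside adjusted p = 0.248 with glmTreat and 0.0854 in the main edgeR test. Reads on the strand opposite to these genes were few, at 0 to 4.77% of a copy's reads for the 15 tested copies.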

How the data were processed

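Total RNA was made into stranded TruSeq mRNA libraries, per the labels' protocols. Tools named in the submitters' processing notes are STAR 2.5.2a, edgeR 3.15.2, FastQC 0.11.4 and bcl2fastq 2.17.1.14. Each deposited count file gives unnormalized read counts for every gene model in STAR's format, which leaves out reads with more than a single mapping place. Its reverse-strand column, sense for this kit, was used. Lines that name no gene were left out. Of all reads, 48.6 to 57.1% lay outside annotated features, 29.8 to 40.4% were unmapped and 2.02 to 5.53% were multimapping. The authors also deposited log2 fold changes, log2 CPM, a signed fold change score, and p-values with false discovery rates, whose test is not given in the sources used here. Symbols and positions (Xenla9.1) came from the deposited annotation.

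The main fit used edgeR 4.0.16 in R 4.3.3, with filterByExpr (minimum count 10), TMM scaling, glmQLFit and glmQLFTest (two-sided) and no term beside the group. The SE was computed as the absolute log2 fold change over the square root of F, and 95% intervals use it. Alternatives were DESeq2 1.42.0, limma 3.58.1, other scalings, no filter, glmTreat against a 1.5-fold change, counts without strand, each library left out, and a replicate block. L and S counts were also summed per symbol, which left 15123 features tested. Wilson intervals and floors cover counting error only, and p-values measure the spread between these libraries. Members and lists were chosen with earlier results of these data known. Genes named by rule were the member copies, 5 genes most like tfap2a.L (tp63.L did not pass the filter) and up to 6 copies past the test per list. Others, such as dlx6.L, dlx2, dlx4, cited4, kctd1, kctd15, foxj1, ccno, tfap2d, tfap2e, gata2, gata3, cdh1.S and cldn4.L, were named after their values were seen. Some genes of the lists are counted but not reported by name here.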

Additional observations from a re-analysis of the deposited data

Results flagged for a closer look

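Reads on the antisense strand, which entered no comparison, were above every control in both MOV10 libraries for grhl2.L and tp63.L, relative to each library's gene reads. grhl2.L had 11 such reads in both MOV10 libraries together (5 and 6) and 4 in the controls together, and tp63.L had 7 (6 and 1) and 0. The rule was applied to the 18 copies alone. The share of all genes that meet it was not counted, so these copies cannot be called unusual. Over all genes the antisense share was 6.15 to 7.89% in the controls and 11.7 and 10.7% in the MOV10 group, and its part in these counts was not tested.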

How the results depend on the processing

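Each tested copy kept its direction in all 13 alternatives. The copies called lower numbered 6 to 10 over the alternatives, with 6 to 9 when 1 library was left out. The copies called higher numbered 0 except 1 with a replicate block and 0 to 1 when 1 library was left out, each time grhl2.L. The replicate numbers 2 and 3 occur in both groups, but differences between those libraries correlated at 0.052 across genes between the groups, over 2 pairs, which does not establish a pairing, and the mating pair behind each library is unknown here. The replicate block gave 9 copies lower and 1 higher, with tfap2c.L (edgeR adjusted p = 0.0497) and grhl2.L (0.00357) added, and 3098 genes lower and 4118 higher over all genes. Over the 13 alternatives all genes called lower were 2424 to 4357 and higher 3718 to 5318, and the total-read scale gave 4357 lower and 4358 higher, beside 3544 and 4899 with TMM. tfap2c.L also passed with the total-read scale (edgeR adjusted p = 0.039) and with limma-voom (adjusted p = 0.0319). Copies with few reads (tfap2b, tp63, dlx3.L) are limited by depth. A fit without a MOV10 library leaves 1, which is assumed to vary like the controls.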
